A study of Mus musculus with 12 samples.

Results

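The 10 genes described here are endothelial lineage genes: Kdr, Flt1, Tie1, Tek, Cdh5, Pecam1, Cldn5, Etv2, Tal1 and Sox18. They were chosen by name as known genes of the endothelium and its progenitors, with earlier results of these data known. Each symbol matched 1 row of the 55141 genes in the count table. They were followed in gastruloids, which are aggregates grown from mouse embryonic stem cells, here of the 129/SVEV background, and which hold derivatives of all germ layers. All samples started from 300 cells per well and received the Wnt agonist CHIR at 3 μM for 24 h from 48 h after seeding. Gastruloids were then embedded in a dextran hydrogel at 72 h or at 96 h and collected at 120 h. The gel concentration, which counts reactive functions rather than dextran, was 1.5 mM (stiffer) or 1.0 mM, which gave 4 groups of 3 replicates. Each replicate was a pool of about 30 gastruloids, and poly-A RNA was sequenced from each pool. No gastruloid grown without a gel is compared here, so each value shows one embedding against another.

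Endothelial cells line blood vessels and arise from mesoderm that carries the VEGF receptor KDR. ETV2 and TAL1 act early, in the progenitors shared by blood and endothelium. TIE1, TEK, VE-cadherin (Cdh5), PECAM1 and the tight junction protein claudin-5 (Cldn5) belong to cells that are already building vessels, and SOX18 drives their arterial, venous and lymphatic specification. Several of these genes are also read outside the endothelium: Kdr in lateral and cardiac mesoderm, Pecam1 in naive pluripotent cells and Tal1 in blood and spinal cord.

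All 10 genes had counts in every library. The lowest count of any of them was 73, for Cldn5, and the highest was 5738, for Kdr, in libraries of 23011791 to 27609422 counts. In FPKM, the deposited unit that corrects for gene length, Kdr was the highest, at 23.4 ± 4.41 (SD, n = 12 libraries), followed by Etv2 at 13.5 ± 2.34. Below these came Sox18 at 9.31 ± 3.75, Cldn5 at 7.86 ± 5.37, Cdh5 at 6.32 ± 2.08 and Tal1 at 5.35 ± 1.63 FPKM. The remaining genes were Tie1 at 3.44 ± 1.24, Tek at 3.11 ± 0.820, Flt1 at 2.79 ± 0.50 and Pecam1 at 1.91 ± 0.603 FPKM. Kdr, at 17.45 to 30.8 FPKM, lay above every library of Etv2, at 9.92 to 17.15 FPKM, whereas from Etv2 downwards the range of each gene overlapped that of the next. Kdr and Etv2 changed places when counts per kilobase of exon were used, and the other 8 ranks stayed the same.

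Positions are given in build mm10, and none of the 10 genes overlaps the exons of another annotated gene. Kdr (ENSMUSG00000062960, chromosome 5, 75932827 to 75978458, minus strand) and Flt1 (ENSMUSG00000029648, chromosome 5, 147561604 to 147726011, minus strand) lie far apart on the same chromosome. Tie1 (ENSMUSG00000033191, 118471191 to 118490061, minus strand), Tek (ENSMUSG00000006386, 94739289 to 94874976, plus strand) and Tal1 (ENSMUSG00000028717, 115056426 to 115071755, plus strand) are on chromosome 4. Cdh5 (ENSMUSG00000031871) is on chromosome 8 at 104101625 to 104144511, Pecam1 (ENSMUSG00000020717) on chromosome 11 at 106654217 to 106750628 and Cldn5 (ENSMUSG00000041378) on chromosome 16 at 18776847 to 18778262. Etv2 (ENSMUSG00000006311) is on chromosome 7 at 30633616 to 30635852, and Sox18 (ENSMUSG00000046470) on chromosome 2 at 181669836 to 181671640.

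Promoters of 300 bases around the start site were taken from RefSeq (GRCm38.p6), which gave entries for 7 of the 10 genes and none for Cdh5, Pecam1 or Sox18. Cldn5 is shown because it had the largest fold change between embedding times of the 10 genes. Tie1 and Tek are shown because their levels went together across libraries, and Etv2 and Tal1 because they were higher after embedding at 72 h while Cldn5 was lower. These 4 were picked after their values were seen. Each promoter is written 5′ to 3′ on the strand of its gene, and capitals mark matches to the ETS core AGGAA or to the GATA motif AGATAA on either strand.
Cldn5 (chr16:18776597-18776896, plus strand): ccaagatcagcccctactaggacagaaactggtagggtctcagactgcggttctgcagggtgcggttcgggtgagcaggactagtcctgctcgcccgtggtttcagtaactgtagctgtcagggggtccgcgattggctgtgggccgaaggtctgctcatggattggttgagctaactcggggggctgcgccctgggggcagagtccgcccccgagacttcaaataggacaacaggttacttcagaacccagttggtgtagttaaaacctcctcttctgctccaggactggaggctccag
Tie1 (chr4:118489800-118490099, minus strand): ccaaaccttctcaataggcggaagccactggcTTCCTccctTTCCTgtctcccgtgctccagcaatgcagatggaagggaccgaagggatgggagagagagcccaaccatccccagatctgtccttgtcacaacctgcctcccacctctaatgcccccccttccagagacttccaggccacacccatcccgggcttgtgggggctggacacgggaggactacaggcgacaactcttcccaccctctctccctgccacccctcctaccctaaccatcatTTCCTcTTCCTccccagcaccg
Tek (chr4:94739039-94739338, plus strand): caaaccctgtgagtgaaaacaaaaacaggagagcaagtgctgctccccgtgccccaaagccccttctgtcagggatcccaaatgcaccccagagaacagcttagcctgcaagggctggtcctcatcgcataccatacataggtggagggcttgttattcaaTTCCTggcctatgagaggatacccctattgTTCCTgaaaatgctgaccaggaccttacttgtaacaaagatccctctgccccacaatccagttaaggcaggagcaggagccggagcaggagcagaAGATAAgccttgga
Etv2 (chr7:30635803-30636102, minus strand): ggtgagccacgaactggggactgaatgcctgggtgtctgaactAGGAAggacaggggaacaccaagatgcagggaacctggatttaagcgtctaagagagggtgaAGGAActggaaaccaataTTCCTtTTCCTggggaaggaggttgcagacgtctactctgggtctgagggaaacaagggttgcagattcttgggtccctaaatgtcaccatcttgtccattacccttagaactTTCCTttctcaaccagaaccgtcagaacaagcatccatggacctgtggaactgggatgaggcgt
Tal1 (chr4:115056176-115056475, plus strand): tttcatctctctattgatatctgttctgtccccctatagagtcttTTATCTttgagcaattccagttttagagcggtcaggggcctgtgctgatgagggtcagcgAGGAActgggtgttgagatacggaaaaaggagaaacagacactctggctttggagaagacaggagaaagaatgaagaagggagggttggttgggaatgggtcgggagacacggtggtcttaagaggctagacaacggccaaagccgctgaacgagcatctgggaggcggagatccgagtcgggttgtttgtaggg
The ETS core, the letters bound by the family that includes ETV2, occurred 5 times in the Etv2 promoter, 4 times in that of Tie1, 2 times in that of Tek, 1 time in that of Tal1 and 0 times in that of Cldn5. Of all 32817 promoters of this length, 66.7% held at least 1 such match and 4.44% held 4 or more. AGATAA was found in the Tek and Tal1 promoters, 1 time in each, and in 11.2% of all promoters. The start site of the Tie1 entry lies 212 bases from the gene start in the GENCODE annotation, while those of the other 4 entries coincide with it. Motifs could overlap and were counted separately, and a match is only an occurrence of these letters.

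The first comparison asks how embedding at 72 h rather than 96 h went with endothelial gene levels at 120 h. Over both gels, 7 of the 10 genes passed an adjusted p of 0.05 in edgeR's quasi-likelihood test. Of these, 4 were lower after embedding at 72 h (Cldn5, Sox18, Tie1 and Cdh5) and 3 were higher (Tal1, Kdr and Etv2). This threshold was passed by 31.1% of the 16388 genes tested, 16.2% higher and 14.8% lower. With a term for the replicate number in the fit, all 10 passed it, 3 higher and 7 lower, as did 5955 of the 16388 genes. Differential expression (DE), which also asks for an absolute log2 fold change above 1, was reached by 1 of the 10 genes, Cldn5, against 4.66% of all genes. Values after 72 h and after 96 h were fully separate for 6 of the 10 genes in 1.0 mM gels, as for 27.9% of all genes, and for 4 of the 10 in 1.5 mM gels, as for 39.2% of all genes. In pooled tissue like this, fewer endothelial cells and less RNA per endothelial cell cannot be told apart.

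Among the junction and adhesion genes, Cldn5 fell the furthest. In CPM (counts scaled to a common effective library size), the 3 replicates embedded in 1.0 mM gels at 72 h held 4.37, 4.66 and 9.49, and those in 1.5 mM gels 5.24, 3.25 and 5.23. After embedding at 96 h the values were 24.3, 21.4 and 24.8 CPM in 1.0 mM gels and 23.2, 20.3 and 27.6 CPM in 1.5 mM gels. Every library embedded at 72 h was thus below every library embedded at 96 h, by more than the spread within any group. The share of all genes separated in this way over both gels was not computed. The log2 fold change of 72 h over 96 h was -2.14 (SE 0.181, adjusted p 1.46e-06) over both gels, a 4.42-fold lower level, with -1.92 (SE 0.244, adjusted p 8.95e-04) in 1.0 mM gels and -2.37 (SE 0.192, adjusted p 5.46e-04) in 1.5 mM gels. Replicate 3 of the group embedded in 1.0 mM gels at 72 h was the highest of the 6, and without it the value over both gels was -2.37.

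Cdh5, the adhesive component of endothelial adherens junctions, fell less. Its CPM were 28.6, 17.0 and 31.3 after embedding in 1.0 mM gels at 72 h, against 38.0, 32.6 and 40.9 at 96 h. In 1.5 mM gels they were 38.2, 12.8 and 26.5 at 72 h, against 45.9, 35.7 and 49.4 at 96 h. The groups were separate in 1.0 mM gels and overlapped in 1.5 mM gels, where replicate 1 embedded at 72 h was above replicate 2 embedded at 96 h. Over both gels the log2 fold change was -0.65 (SE 0.200, adjusted p 0.0234), and it missed the threshold without replicate 3 embedded in 1.5 mM gels at 96 h (adjusted p 0.0566). Within each gel it missed the threshold, at -0.53 (adjusted p 0.112) in 1.0 mM and -0.76 (adjusted p 0.108) in 1.5 mM gels, but it passed with DESeq2 in 1.0 mM gels (adjusted p 0.0331) and, once replicate 1 of the 72 h libraries was left out, in 1.5 mM gels (-1.15, adjusted p 0.00702).

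Pecam1, a cell adhesion molecule of endothelium, platelets and naive pluripotent cells, had the lowest mean FPKM of the 10 genes. After embedding at 72 h it held 10.5, 4.37 and 7.03 CPM in 1.0 mM gels and 11.2, 3.83 and 5.43 CPM in 1.5 mM gels. After embedding at 96 h it held 10.96, 7.83 and 8.90 CPM in 1.0 mM gels and 11.2, 7.75 and 8.92 CPM in 1.5 mM gels. Replicate 1 was near 11 CPM in every group, and the groups overlapped in both gels. The log2 fold change over both gels was -0.39 (SE 0.233, adjusted p 0.213). Without replicate 1 embedded in 1.5 mM gels at 72 h it was -0.62 and passed the threshold (adjusted p 0.0425). With a term for the replicate number in the fit it was -0.47 and passed as well (adjusted p 0.0113).

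**Figure D1:**
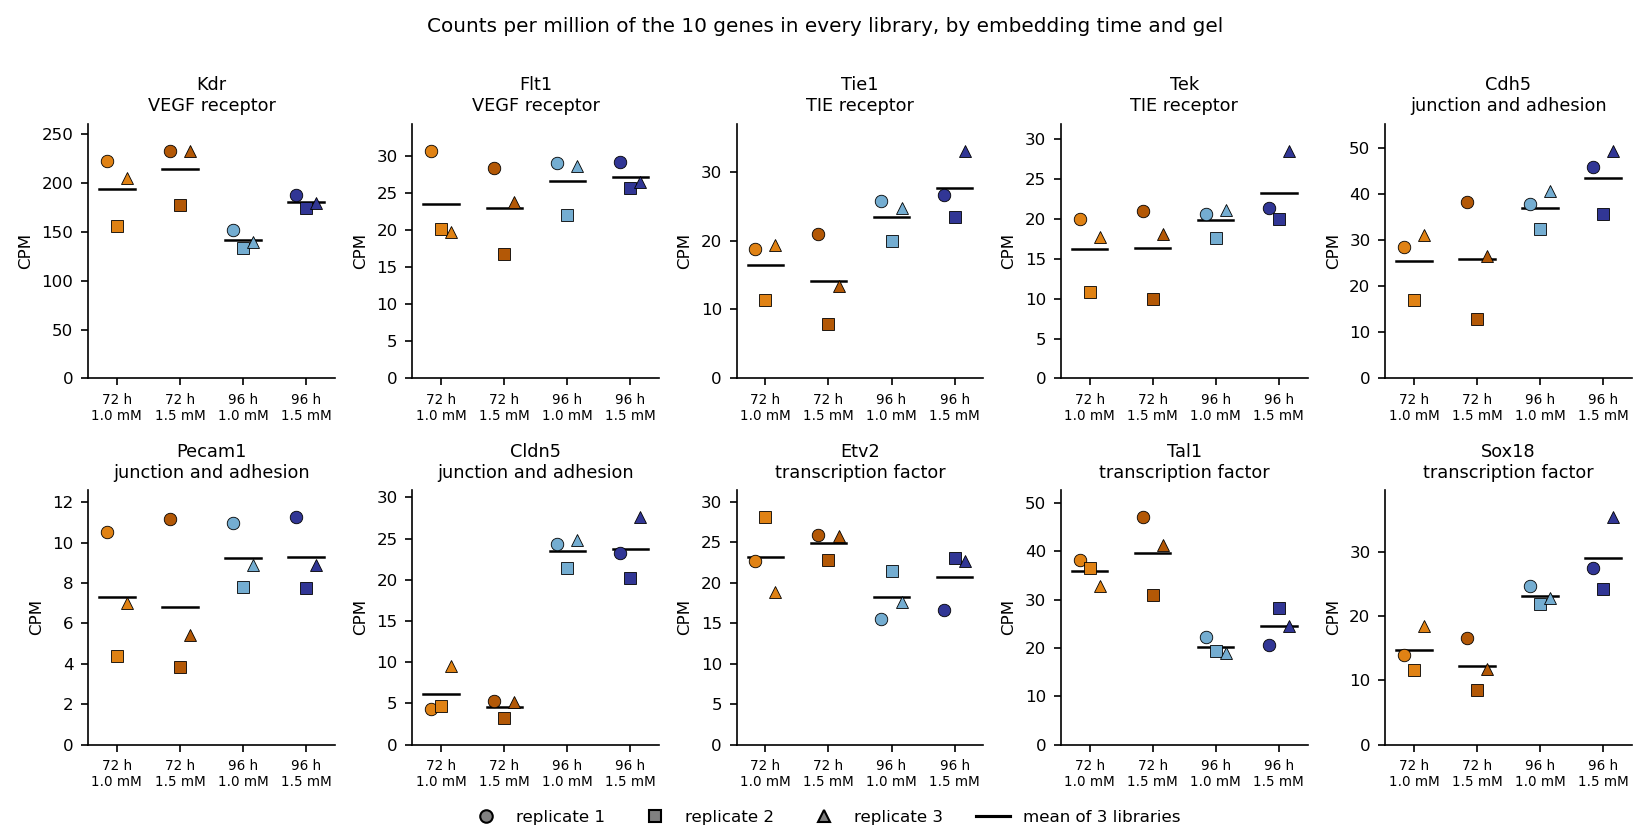
CPM (vertical axes, from 0) of each of the 10 genes in the 12 libraries, grouped by embedding time and gel (horizontal axes); symbols give the replicate number and bars the mean of 3 libraries. Cldn5 lies at 3.25 to 9.49 CPM after embedding at 72 h and at 20.3 to 27.6 CPM after 96 h, Tal1 lies higher after 72 h, and replicate 2 is the lowest of its group in all 4 groups for 6 of the genes.

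The angiopoietin receptor Tek and its partner receptor Tie1, which modulates TEK signalling, both had log2 fold changes below 0, and Tie1 passed the test. Tie1 held 18.8, 11.4 and 19.4 CPM in 1.0 mM gels at 72 h and 20.9, 7.92 and 13.4 CPM in 1.5 mM gels, against 25.7, 19.9 and 24.7 and then 26.6, 23.5 and 33.0 CPM at 96 h. Its groups were separate in both gels. Tie1 fell over both gels, with log2 fold change -0.74 (SE 0.194, adjusted p 0.00973), and in 1.5 mM gels, at -0.98 (SE 0.281, adjusted p 0.0387), while in 1.0 mM gels it was -0.50 (adjusted p 0.127). The call in 1.5 mM gels was lost without replicate 2 or 3 embedded at 72 h or any 1 replicate embedded at 96 h, with adjusted p of 0.0616 to 0.134, and with DESeq2 (adjusted p 0.0753). Tek held 20.0, 10.9 and 17.7 CPM in 1.0 mM gels at 72 h and 21.01, 9.97 and 18.1 CPM in 1.5 mM gels, against 20.7, 17.6 and 21.2 and then 21.4, 20.1 and 28.5 CPM at 96 h. Its groups overlapped, and its log2 fold change over both gels was -0.40 (SE 0.170, adjusted p 0.0827), which passed the threshold without replicate 1 embedded in 1.0 mM gels at 72 h (-0.49, adjusted p 0.0437). It also missed the threshold within gels, and passed it in 1.5 mM gels once replicate 1 of the 72 h libraries was left out (-0.74, adjusted p 0.0342). With a term for the replicate number in the fit, Tek passed over both gels (-0.44, adjusted p 0.00689) and in 1.5 mM gels (adjusted p 0.0387).

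Of the VEGF receptors, Kdr was higher and Flt1 did not pass the test. Kdr, the main signalling receptor for VEGF-A and the earliest of these genes to mark vascular mesoderm, held 222.2, 156.4 and 204.8 CPM in 1.0 mM gels at 72 h against 152.1, 133.3 and 139.8 CPM at 96 h. In 1.5 mM gels it held 232.8, 177.7 and 232.7 CPM at 72 h against 188.1, 174.2 and 179.8 CPM at 96 h. The groups were separate in 1.0 mM gels and overlapped in 1.5 mM gels, where replicate 2 embedded at 72 h was the low library. Kdr rose over both gels, with log2 fold change 0.35 (SE 0.0868, adjusted p 0.00705), and in 1.0 mM gels, at 0.46 (SE 0.118, adjusted p 0.0320), while in 1.5 mM gels it was 0.24 (adjusted p 0.118). The call in 1.0 mM gels was lost without replicate 1 or 3 embedded at 72 h or any 1 replicate embedded at 96 h, with adjusted p of 0.0575 to 0.133, and in 1.5 mM gels a call was gained without replicate 2 embedded at 72 h (0.36, adjusted p 0.0185).

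Flt1, which binds VEGF-A tightly and acts largely as a decoy in the embryo, ranged from 16.8 to 30.7 CPM. In 1.0 mM gels it held 30.7, 20.1 and 19.9 CPM at 72 h and 29.1, 22.1 and 28.8 CPM at 96 h. In 1.5 mM gels it held 28.4, 16.8 and 23.8 CPM at 72 h and 29.3, 25.7 and 26.6 CPM at 96 h. The groups overlapped in both gels, and the log2 fold change over both gels was -0.21 (SE 0.129, adjusted p 0.234). With a term for the replicate number in the fit, Flt1 passed over both gels (-0.23, adjusted p 0.0432). The value for 1.5 mM gels alone was -0.24 (adjusted p 0.321), or -0.42 (adjusted p 0.0416) once replicate 1 of the 72 h libraries was left out.

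The transcription factors split. Tal1, needed for the first blood cells and for vessel remodelling, held 38.3, 36.6 and 32.8 CPM in 1.0 mM gels at 72 h and 47.0, 30.9 and 41.2 CPM in 1.5 mM gels. At 96 h it held 22.4, 19.3 and 19.0 CPM in 1.0 mM gels and 20.6, 28.4 and 24.6 CPM in 1.5 mM gels. Every library embedded at 72 h was above every library embedded at 96 h, a separation whose share over all genes was not computed. Tal1 rose by 0.76 on the log2 scale over both gels (SE 0.101, adjusted p 7.53e-05), by 0.83 in 1.0 mM gels (SE 0.109, adjusted p 0.00106) and by 0.69 in 1.5 mM gels (SE 0.161, adjusted p 0.0182). The last of these missed the threshold without replicate 3 at 72 h or without replicate 1 or 3 at 96 h, with adjusted p of 0.0554 to 0.0651.

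Sox18, a factor of vessel and lymphatic development, fell. It held 14.0, 11.6 and 18.4 CPM in 1.0 mM gels at 72 h and 16.5, 8.504 and 11.7 CPM in 1.5 mM gels. At 96 h it held 24.6, 21.9 and 22.8 CPM in 1.0 mM gels and 27.5, 24.2 and 35.4 CPM in 1.5 mM gels. Again there was no overlap between embedding times, and the share of all genes like this was not computed. Its log2 fold change was -0.95 over both gels (SE 0.164, adjusted p 6.24e-04), -0.65 in 1.0 mM gels (SE 0.156, adjusted p 0.0238) and -1.25 in 1.5 mM gels (SE 0.222, adjusted p 0.00722). The call in 1.0 mM gels was lost without any 1 of the replicates embedded at 96 h, with adjusted p of 0.0614 to 0.0865, and with all 12 libraries in 1 fit (adjusted p 0.0590). The difference of the effect between gels was -0.59 (SE 0.297), with an adjusted p of 0.953 for the interaction.

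Etv2, the ETS factor that starts the haemato-endothelial programme, was the other factor that was higher after embedding at 72 h. In 1.0 mM gels it held 22.7, 28.1 and 18.9 CPM at 72 h and 15.5, 21.4 and 17.6 CPM at 96 h. In 1.5 mM gels it held 25.9, 22.8 and 25.8 CPM at 72 h and 16.6, 23 and 22.7 CPM at 96 h. The groups overlapped in both gels. Over both gels Etv2 rose by 0.31 on the log2 scale (SE 0.110, adjusted p 0.0457), the weakest of the 7 calls: it was lost without replicate 1 or 2 in 1.0 mM gels at 72 h, replicate 1 or 3 in 1.0 mM gels at 96 h, replicate 1 or 3 in 1.5 mM gels at 72 h or replicate 1 in 1.5 mM gels at 96 h, with adjusted p of 0.0647 to 0.108.

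Gel by gel, 4 of the 10 genes passed the adjusted p in 1.0 mM gels (Kdr and Tal1 higher, Cldn5 and Sox18 lower), against 9.24% of all genes tested, and 1 was DE, against 4.3% of all genes. In 1.5 mM gels 4 genes passed it as well (Tal1 higher, Cldn5, Sox18 and Tie1 lower), against 19.3% of all genes, and Cldn5 and Sox18 were DE, against 3.18% of all genes. The library that decided this last count was replicate 1 embedded in 1.5 mM gels at 72 h. Its CPM was the highest of its group for all 10 genes, though by little for Kdr, Cldn5 and Etv2. Without this library 5 genes were DE: Cldn5 at -2.48, Sox18 at -1.52, Tie1 at -1.38, Cdh5 at -1.15 and Pecam1 at -1.01. The count over all genes rose as well, from 498 of 15683 to 636 of 16064 genes. In the same library 6.12% of counts fell on the gene CT010467.1, the highest share of a single gene in the 12 libraries, and the part this played was not tested. The interaction of embedding time and gel passed the threshold for 0 of the 10 genes and 0% of all genes in edgeR with the filter on low counts. Of all genes, 2 passed it in DESeq2, 238 in edgeR with no filter on low counts and 5 with a replicate block, with 0 of the 10 in each. In the main fit 0 of the 10 and 708 of all genes had an unadjusted p below 0.05. The log2 differences of the 10 genes ran from -0.59 for Sox18 to -0.06 for Flt1.

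**Figure D2:**
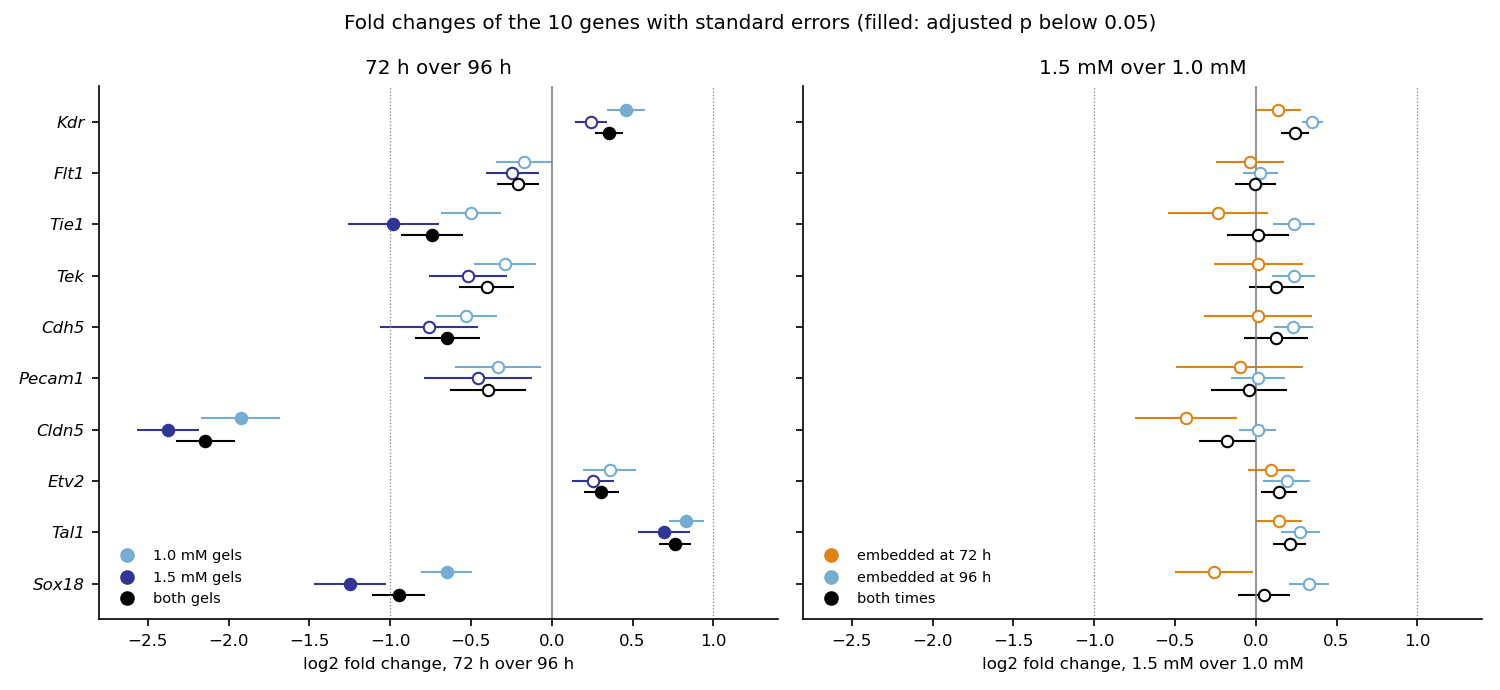
Log2 fold changes (horizontal axes) with standard errors of the 10 genes, for 72 h over 96 h on the left and for 1.5 mM over 1.0 mM on the right; colours give the gel or embedding time, black all 12 libraries, and filled points an adjusted p below 0.05. Cldn5 lies near -2 and Sox18 between -0.65 and -1.25 on the left, Tal1 and Kdr lie to the right of 0, and no point is filled on the right.

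The second comparison asks whether gel concentration went with the same genes. None of the 10 passed the adjusted p between 1.5 mM and 1.0 mM gels, at either embedding time or over both, in edgeR with the filter on low counts. At 72 h, 0% of all genes tested passed it in edgeR while 16 genes did in DESeq2 and 322 in edgeR with no filter on low counts, and 0 of the 10 and 1074 of all genes had an unadjusted p below 0.05 in edgeR. The 10 genes then had log2 fold changes from -0.43 for Cldn5 to 0.14 for Tal1. At 96 h, 0% of all genes passed it in edgeR while 97 genes did in DESeq2 and 333 in edgeR with no filter, and 3 of the 10 genes (Kdr, Tal1 and Sox18) and 1578 of all genes had an unadjusted p below 0.05 in edgeR. All 10 log2 fold changes at 96 h were above 0, from 0.01 for Cldn5 to 0.35 for Kdr. Over both embedding times 0.0305% of all genes passed in edgeR (204 genes in DESeq2 and 512 in edgeR with no filter), and the 10 genes ran from -0.18 for Cldn5 to 0.25 for Kdr.

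Kdr was the gene nearest to a difference between gels. At 96 h its replicates held 188.1, 174.2 and 179.8 CPM in 1.5 mM gels and 152.1, 133.3 and 139.8 CPM in 1.0 mM gels, with no overlap, as in 15.3% of all genes. The log2 fold change was 0.35 (SE 0.0634) with an adjusted p of 0.122 in edgeR, while DESeq2 gave an adjusted p of 9.29e-04 and edgeR with no filter on low counts 1.21e-04. Over both embedding times the adjusted p of Kdr was 0.268, and 0.00354 with no filter. At 72 h the same difference was 0.14 (SE 0.142, adjusted p 0.836), and the groups overlapped. In the main fits Hey1, a Notch target in arterial endothelium, was the 1 gene of the lists used here to pass the threshold between gels. Its log2 fold change was 0.53 over both embedding times (adjusted p 0.0257). With a term for the replicate number in the fit, 289 of 15861 genes passed at 96 h. They included 11 of 15 heart and anterior mesoderm genes, all higher in 1.5 mM gels. Of 17 other endothelial transcription factors, 5 were then higher and 1 lower. At 72 h, 43 of 15563 genes passed with this term, and 3 of the 15 heart genes were lower.

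Within groups most of the genes varied together between libraries. After each group's mean was subtracted, the log2 CPM of Tie1 and Cdh5 correlated at r = 0.98 over the 12 libraries, Tie1 and Tek at 0.96, Tek and Cdh5 at 0.95 and Tie1 and Sox18 at 0.94. Kdr, whose level moved the other way with embedding time, followed Tek at 0.89 and Cdh5 at 0.86 within groups, although its correlation with Cdh5 across all libraries was -0.02. Cldn5 followed Sox18 at 0.82 and Flt1 at 0.09. Etv2 was the exception, with r from -0.41 to -0.14 with 8 of the other genes and 0.43 with Tal1. These values describe 12 libraries that share their groups, and each library gives all 10 genes from the same RNA.

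**Figure D3:**
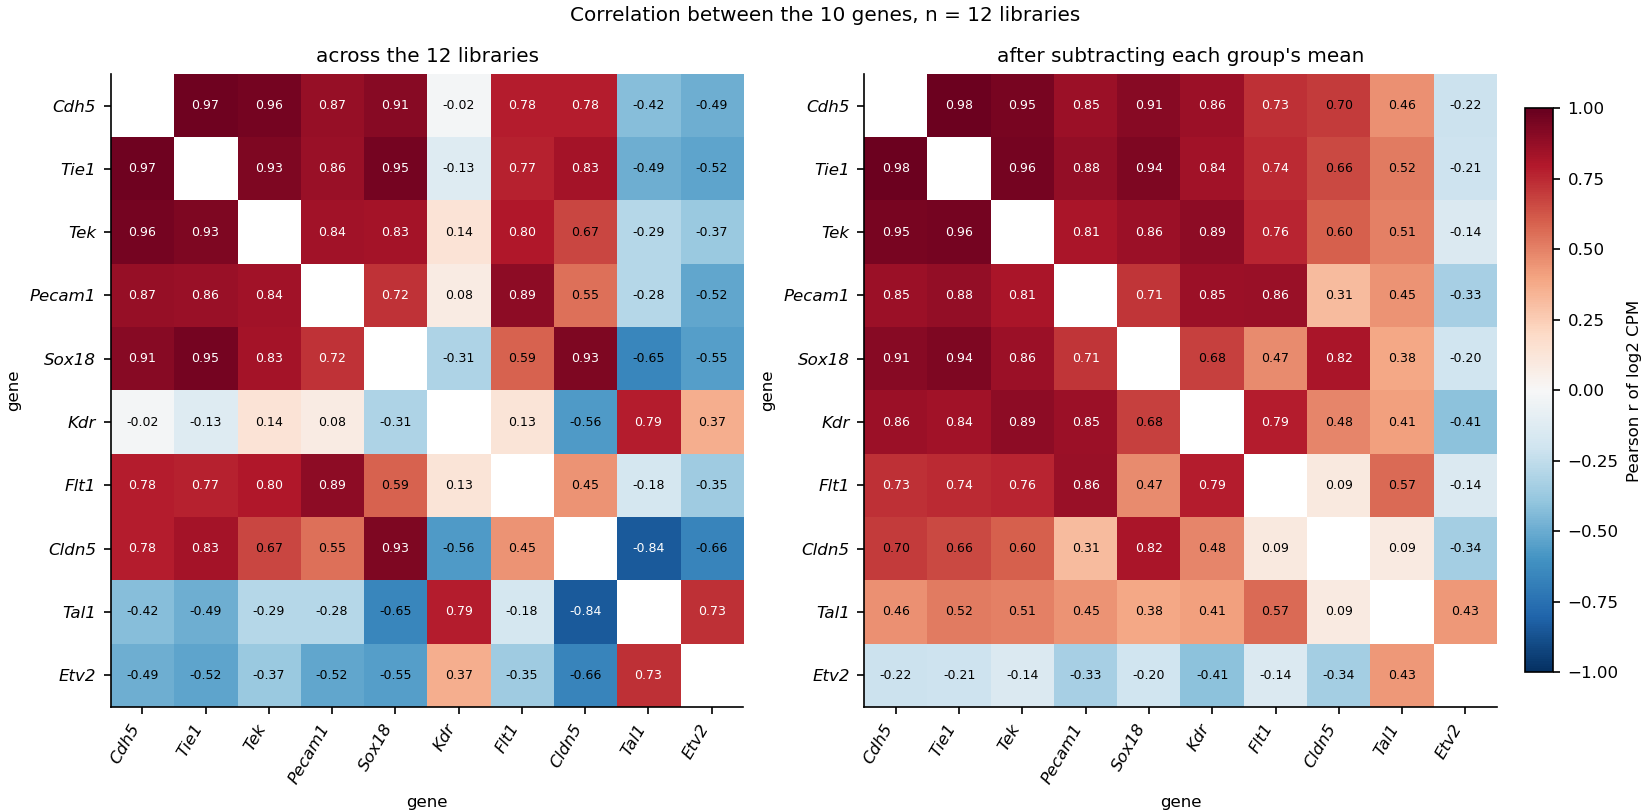
Pearson r of log2 CPM between each pair of the 10 genes over 12 libraries, before (left) and after (right) subtracting each group's mean; colours run from -1 (blue) to 1 (red), and both axes list the genes. On the right, Cdh5, Tie1, Tek, Pecam1, Sox18 and Kdr form a block of r from 0.68 to 0.98, and Etv2 is negative with every gene but Tal1.

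Replicate 2 was the lowest library of its group in all 4 groups for Kdr, Tie1, Tek, Cdh5, Pecam1 and Sox18, a pattern held by 3.07% of all genes tested. For Flt1 and Cldn5 it was the lowest in 3 groups, and for Etv2 and Tal1 in 1. The low values were the most marked after embedding at 72 h, where replicate 2 in 1.5 mM gels held 12.8 CPM of Cdh5 against 38.2 and 26.5 CPM in the other replicates. The labels do not say whether a replicate number stands for a shared day or batch. Without replicate 2 of every group, 7 genes passed the adjusted p over both gels, 3 higher and 4 lower, while the count over all genes fell from 5092 of 16388 to 3429 of 16520. The log2 fold change of Cdh5 was then -0.47 (adjusted p 0.0114), and the calls of Sox18 in 1.0 mM gels (-0.53, adjusted p 0.102) and Tie1 in 1.5 mM gels (-0.80, adjusted p 0.0927) were lost.

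Set against Cdh5, the genes differed in whether their ratio overlapped between embedding times. The ratio of Tie1 to Cdh5 in CPM was 0.602 ± 0.0640 (SD, n = 6 libraries) after embedding at 72 h and 0.633 ± 0.0394 after 96 h, with overlapping ranges. The ratio of Sox18 to Cdh5 was 0.549 ± 0.110 and 0.645 ± 0.0579, also overlapping, although both genes had fallen. The ratio of Cldn5 was 0.220 ± 0.0677 at 72 h and 0.590 ± 0.0563 at 96 h, and the highest library at 72 h, at 0.304, was below the lowest at 96 h, at 0.507. Kdr stood at 8.70 ± 2.80 times Cdh5 at 72 h and 4.02 ± 0.502 times at 96 h, and Tal1 at 1.62 ± 0.542 and 0.565 ± 0.129 times, neither with overlap. The ratios of Etv2, Flt1, Tek and Pecam1 to Cdh5 overlapped between embedding times. Cdh5 itself averaged 25.75 CPM after embedding at 72 h and 40.4 CPM after 96 h, so a gene with an unchanged level has a higher ratio at 72 h. No test was made on the ratios, and the share of all genes whose ratio to Cdh5 was separate was not computed.

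**Figure D4:**
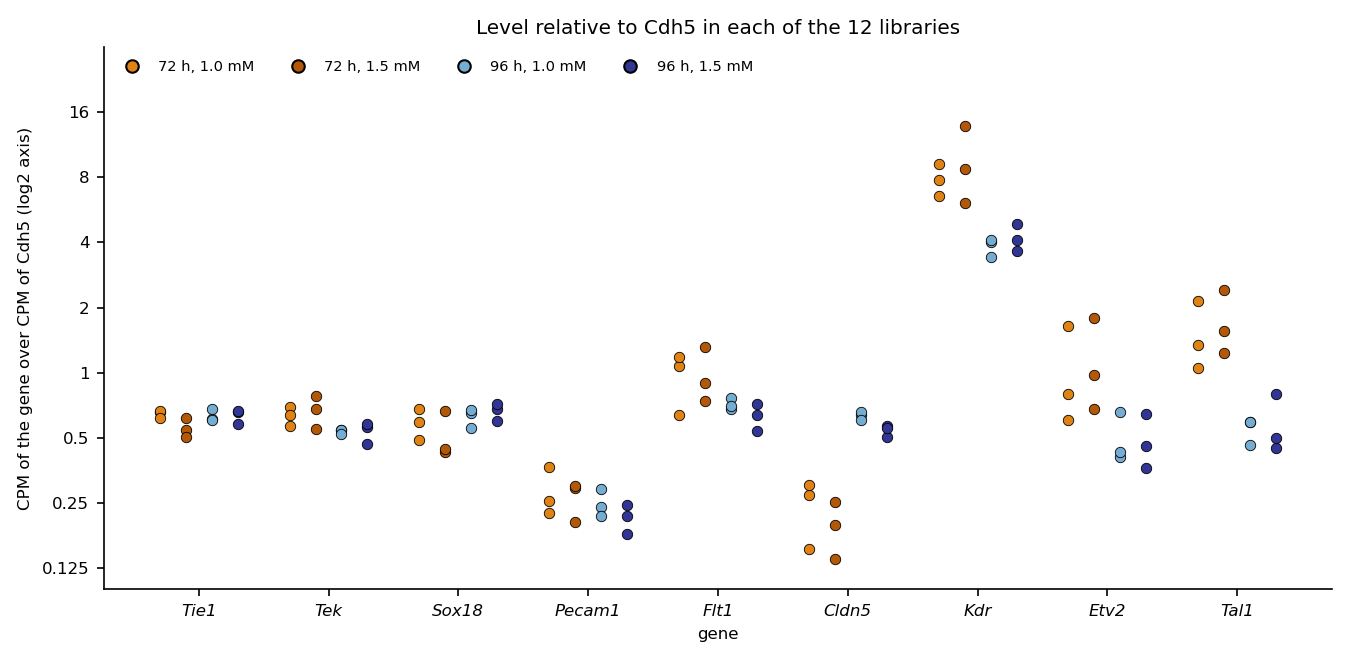
Ratio of the CPM of 9 genes to that of Cdh5 in each of the 12 libraries (vertical axis, log2 scale; genes on the horizontal axis), coloured by embedding time and gel. Tie1 and Sox18 overlap between embedding times, Cldn5 lies at 0.137 to 0.304 after 72 h and at 0.507 to 0.657 after 96 h, and Kdr and Tal1 are higher after 72 h.

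The pattern of the 10 genes was summarised by the mean of their z-scored log2 CPM, and other genes were ranked by their correlation with it. Over the 12 libraries, the closest of 12551 candidates were Nos3, the endothelial nitric oxide synthase (r = 0.98), Arap3 (0.96), Dysf (0.93), Arhgef15 (0.92) and Irf2 (0.92), followed by Gngt2, Hdac7, Mmrn2, Rasip1 and Adora2a (0.91 to 0.88). After group means were subtracted the closest were Nos3 (0.99), Arap3 (0.97), Myo1c (0.96), BC037039 (0.96) and Exoc3l2 (0.95), followed by Sh3tc1, Sh2b3, Mmrn2, Arhgef15 and Slc8b1 (0.94 to 0.93). Nos3, Arap3, Arhgef15 and Mmrn2 were in both sets, and Nos3, Mmrn2 and Rasip1 also stand in the list of other endothelial surface and junction genes. The mean pools genes that fell with genes that rose after embedding at 72 h. Between embedding times over both gels, only Arap3 (-0.41), Rasip1 (-0.33) and Sh3tc1 (-0.95) of the genes named here passed the adjusted p, and Nos3 was at -0.24 (adjusted p 0.161). All are the top of a ranking over 12 libraries, given as a description.

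Other endothelial genes, in lists also chosen with earlier results of these data known, moved in both directions. Unless a gel is named, values of this and the lists below are over both gels, and not every call held within each gel. Of 24 tested surface and junction genes of endothelium outside the 10, 13 fell and 2 rose over both gels, where 14.8% of all genes fell and 16.2% rose, with a median log2 fold change of -0.37 against -0.0072 over all genes. The 6 that changed most were Emcn, an endothelial sialomucin (-1.33, adjusted p 8.28e-04), the guidance receptor Robo4 (-1.17), Plvap, a component of endothelial diaphragms (-1.15), Cd93 (-1.12), Icam2 (-1.09) and Cd34 (-1.04). Vwf, the clotting factor stored by endothelium, and the arterial connexin Gja4 were the 2 that rose, by 0.56 and 0.998. Within gels, Vwf and Gja4 passed the threshold in 1.0 mM gels (0.93 and 1.47) but not in 1.5 mM gels (0.16 and 0.60). Lyve1 and Stab2, markers of lymphatic and sinusoidal endothelium, reached at most 5 counts in any library, and Clec14a at most 8.

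Of 17 other endothelial transcription factors, 6 rose and 6 fell, with a median of -0.10, against 16.2% and 14.8% of all genes. Mef2c (1.51), Hey2 (1.13) and Sox7 (0.70) rose, while Nr2f2, the factor of venous identity (-1.04), Ets1 (-0.997) and the flow-responsive Klf2 (-0.99) fell. Mef2c and Hey2 are also expressed in heart mesoderm, and Klf2 in naive pluripotent cells. Of 12 ligands and co-receptors, 3 rose (the semaphorin and VEGF co-receptor Nrp1, 0.86, the apelin receptor Aplnr, 0.86, and Pgf, 0.54) and 3 fell (the lymphatic growth factor Vegfc, -0.71, its receptor Flt4, -0.34, and the co-receptor Nrp2, -0.59), against the same shares of all genes, with a median of 0.0045. Vegfa, the main ligand of Kdr, had a log2 fold change of 0.16 (adjusted p 0.425).

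Genes of lists for other cell types changed over the same comparison, and their part in the values of the 10 genes was not tested. Beside the counts of each list stands the background of this comparison, 16.2% of all genes higher and 14.8% lower. The heart and anterior mesoderm list, from tissue that can also express Kdr, had 12 of 15 tested genes higher after embedding at 72 h and 0 lower, led by Tbx20 (2.08), Myl7 (2.06), Tbx5 (2.06), Gata4 (1.95), Nkx2-5 (1.87) and Myl4 (1.71). Its summed level was 835.0 to 1424 CPM in the 6 libraries embedded at 72 h and 396.0 to 707.3 CPM in those embedded at 96 h. By gel, 13 of the 15 were higher in 1.0 mM gels, against 5.97% of all genes, and 6 in 1.5 mM gels, against 10.4% of all genes. The naive pluripotency list, whose cells also express Pecam1, had 9 of 12 genes lower and 0 higher, led by Nr0b1 (-3.85), Dppa3 (-2.67), Dppa5a (-2.60), Fgf4 (-2.47), Zfp42 (-2.39) and Nanog (-1.74). Its summed level was 62.7 to 98.4 CPM at 72 h and 121.0 to 182.4 CPM at 96 h, and Cldn5, Sox18, Tie1 and Cdh5 fell in the same comparison. Nr0b1 and Dppa3 had at most 30 and 33 counts in any library, with group means near the floor at 72 h. In 1.0 mM gels 8 of the 11 naive pluripotency genes tested were lower, against 3.27% of all genes. There 1 was higher, Tbx3 (1.49, adjusted p 0.0187), against 5.97% of all genes. In 1.5 mM gels 7 of 11 were lower, against 8.98% of all genes, and 0 were higher.

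Against the same background of 31.1% of all genes changed in either direction, the remaining lists had calls in both directions. For blood, where Tal1 is also expressed, 5 of 17 genes were tested, Gata1 rose (1.85) and Myb and Itga2b fell (-0.60 and -0.41). The summed blood list was 18.0 to 23.01 CPM at 72 h and 20.5 to 25.7 CPM at 96 h, and its defining genes were near 0: Hbb-y and Ptprc had 0 counts in every library, Hbb-bh1 and Hba-x at most 2, and Gata1 at most 26. In the neural list 4 of 11 genes rose and 4 fell, led by Olig2 (-5.20), Map2 (1.75), Pax3 (-0.99), Tubb3 (0.90), Pax6 (0.82) and Sox1 (-0.64), with summed levels of 164.0 to 208.7 CPM at 72 h and 137.8 to 171.0 CPM at 96 h. Olig2 had at most 41 counts in any library, and its group means at 72 h were near the floor. In the mural cell list 3 of 7 genes rose, namely Rgs5 (0.98), Des (0.61) and Notch3 (0.23), and Pdgfrb fell (-0.49), with 340.8 to 533.2 CPM at 72 h and 303.2 to 424.0 CPM at 96 h. By gel, 2 of the 7 were higher in 1.0 mM gels, against 5.97% of all genes, and 0 in 1.5 mM gels, against 10.4% of all genes. In the endoderm list 2 of 9 genes rose, Cer1 (1.21) and Foxa2 (0.63), and Sox17, which endothelium shares, fell (-0.35), with 384.1 to 558.2 CPM at 72 h and 349.7 to 492.9 CPM at 96 h, and its 3 calls in 9 genes were close to the background.

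**Figure D5:**
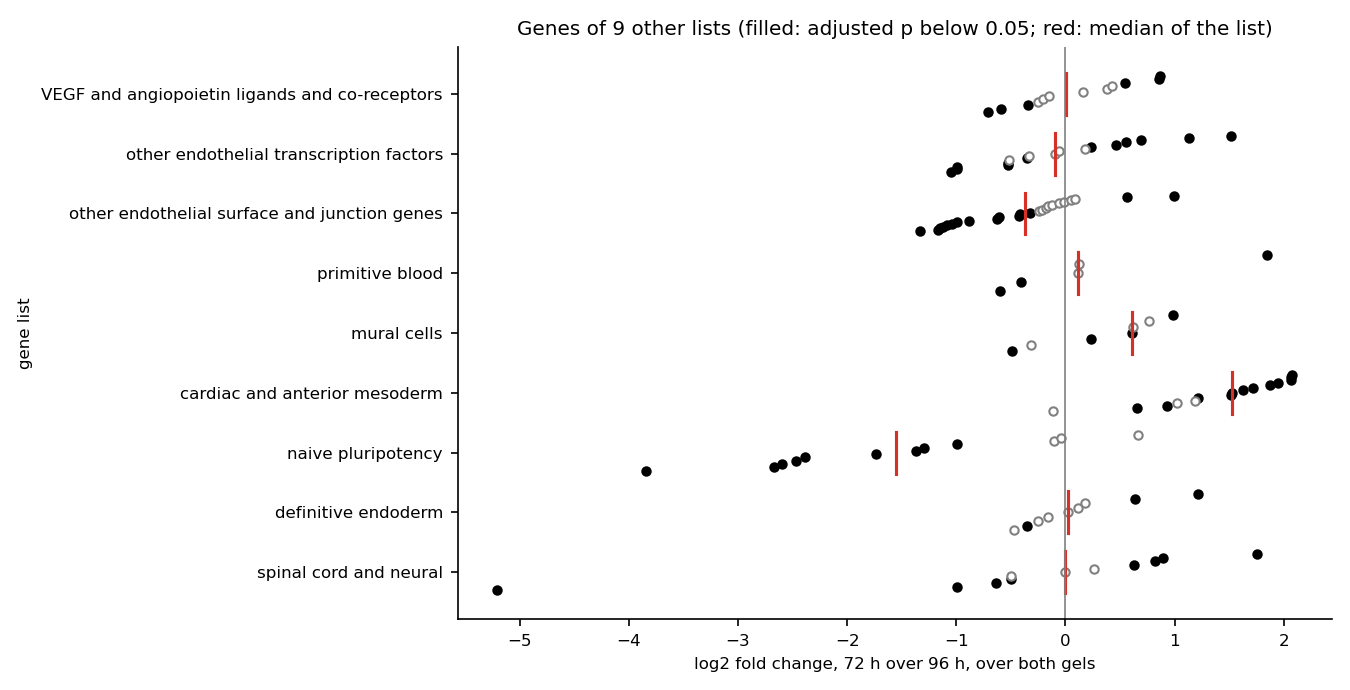
Log2 fold changes of 72 h over 96 h, over both gels (horizontal axis), of the genes tested in 9 other lists (vertical axis); filled points passed an adjusted p of 0.05 and red bars mark the median of each list. The endothelial surface and junction genes lie mostly below 0 (median -0.37), the heart and anterior mesoderm genes mostly above 0 (median 1.53) and the naive pluripotency genes mostly below 0 (median -1.55).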

How the data were processed

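Bulk RNA-seq was measured in 12 libraries. The authors trimmed reads with cutadapt 4.4, aligned them to mm10 with STAR 2.7.10b, and deposited raw read counts per gene and Cufflinks 2.2.1.3 FPKM values, per the labels and file headers. The strand setting of counting is not given in the sources used here. Counts without 36 mitochondrial genes were filtered with filterByExpr (minimum count 10, total 15), normalised by TMM and tested with edgeR 4.0.16 (R 4.3.3), using the quasi-likelihood F test with Benjamini-Hochberg adjustment over all genes tested. Pairs of groups were fitted alone, and all 12 libraries in 1 fit for embedding time, gel and their interaction. Log2 CPM used a prior count of 2. The deposited FPKM values served to order genes by level and, as log2(1 + FPKM) in limma 3.58.1, as an alternative. DESeq2 1.42.0, limma-voom, other filters and normalisation, a replicate block and leaving out each library were also tried. The scripts were tested on simulated data. Libraries held 23011791 to 27609422 counts, and counting error is small beside the spread of replicates, which were stated to be biological. The labels give the groups. The 10 genes and all gene lists were chosen with earlier results of these data known. Named genes of other lists were those past adjusted p 0.05 over both gels, up to the 6 largest per list, plus defining markers near 0 and genes singled out after their values were seen (Vwf, Gja4, Vegfa, Hey1). All 12 replicate pairs within groups differed by more than sampling noise (chi-squared per degree of freedom 10.1 to 124.1).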

Additional observations from a re-analysis of the deposited data

How the results depend on the processing

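No fold change of 72 h over 96 h changed sign under any alternative run here. The count of DE genes among the 10 in 1.0 mM gels went from 1 to 0 with limma on log2(1 + FPKM) and to 4 with no fold-change threshold. In 1.5 mM gels it went from 2 to 1 and 4 under these settings, and from 2 to 5 across libraries left out in turn. Over both gels it went from 1 to 7 with no fold-change threshold and from 1 to 2 with libraries left out, where Sox18 joined Cldn5 without replicate 3 in 1.0 mM gels at 72 h (-1.07) or replicate 1 in 1.5 mM gels at 72 h (-1.03). DESeq2, limma-voom, RLE normalisation, both other filters, mitochondrial genes kept and all 12 libraries in 1 fit left each of these counts within 1.5 times. Sign changes came in 24 of 70 fold changes, all between gels or in the interaction and none past the threshold. With libraries left out, Cldn5 between gels ran from -0.63 to 0.021 at 72 h, from -0.11 to 0.11 at 96 h (-0.036 with limma on log2(1 + FPKM)) and from -0.27 to 0.012 over both times, Tal1 from -0.0014 to 0.30 at 72 h, and the interaction of Flt1 from -0.26 to 0.17 (0.087 without replicate 2 of each group, an alternative chosen after seeing the data). Over all genes, DE counts went from 678 to 63 (limma on log2(1 + FPKM)), 1457 (no fold-change threshold) and as few as 429 (libraries left out) in 1.0 mM gels, from 498 to 54, 3033 and 298 in 1.5 mM gels, with 139 there without replicate 2 of each group, and from 763 to 123 and 5092 over both gels. Between gels at 96 h, where 0 genes passed the adjusted p, 97 did with DESeq2 and 333 with no filter. With limma on log2(1 + FPKM) none of the 4 calls among the 10 genes in 1.0 mM gels was kept, 1 of 4 (Cldn5) in 1.5 mM gels and 5 of 7 over both gels. With no filter on low counts, calls were gained by Tie1 and Cdh5 in 1.0 mM gels, Kdr, Tek and Cdh5 in 1.5 mM gels and Tek and Pecam1 over both gels.

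With the replicate block, 1 gene was DE in 1.0 mM gels, 3 in 1.5 mM gels (Tie1 at -1.05 joined) and 1 over both gels, and all 10 genes passed the adjusted p over both gels, 3 higher and 7 lower, while the count over all genes rose from 5092 to 5955 of 16388. Within gels the block added calls of Tie1 (adjusted p 0.0108) and Cdh5 (0.00732) in 1.0 mM gels and of Tek (0.0387) and Cdh5 (0.0121) in 1.5 mM gels. Between gels it called Kdr at 96 h (adjusted p 0.0012), beside 289 genes of all at 96 h, 43 at 72 h and 81 over both times. The numbers were not taken as pairs in the main fits. Same-numbered libraries correlated at 0.0365 to 0.313 in deviations from group means over 18 pairs, all positive, and differently numbered ones at -0.262 to 0.111. The rule used asked for every pair above 0.1, a cut set here, which was not met, and the labels give the number no meaning. Whether a number marks a shared experiment was not tested, and the fits with the block are given beside the main ones. All 10 genes passed the filter on low counts, and their lowest count was 73. That filter left 12 of the 17 blood markers untested over both gels, and Hbb-y and Ptprc had 0 counts in every library.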
